A study of Mus musculus with 8 samples.

Results

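Activated mouse T cells kept with human beta-defensin-2 (hBD-2) had lower transcript levels along the route that exports citrate from mitochondria and builds palmitate from it. Slc25a1, Acly and Fasn each fell 1.81-fold to 1.82-fold and Acaca fell 1.67-fold, while Acacb, the other acetyl-CoA carboxylase gene, rose 1.34-fold. The Acacb call was close to the threshold and was lost in 7 of the 8 omissions of 1 array. The genes described are Acly, Acaca, Acacb, Fasn, Acss2, Me1, Slc25a1, Acsl3, Acsl4 and Acsl5. They were chosen by name as genes of acetyl-CoA supply and fatty acid synthesis, with earlier results of these data known, and not by their values. Of these 10 genes, 9 were matched by symbol to a probe set, 1 each, out of 19505 named genes on the array, and no filter on low values was applied. Acsl3 was not matched and was not analysed here.

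The data are 8 one-colour Affymetrix arrays of splenic CD4 and CD8 T cells from male wild-type C57BL/6 mice, isolated with a kit for untouched T cells. All cells, controls included, were stimulated with microbeads carrying antibodies to CD3 and CD28 and cultured for 48 h. In 4 cultures the vehicle phosphate-buffered saline (PBS) was added, and in 4 cultures hBD-2, a cationic peptide of epithelia that kills microbes, at 60 µL/mL, a volume from which no mass concentration follows. The cells came from 4 mice in all. The labels tie no array to a mouse and give no age, so the p-values measure the spread between these arrays. With 8 arrays from 4 mice, some arrays share mice, within or between the groups, so the arrays are not all independent. Values are deposited log2 values of robust multi-array average (RMA) processing, given per array or as mean ± SD with n = 4. The comparison asks which of these genes differed in T cells when the peptide was present during activation.

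Fatty acid synthesis starts from citrate, which the carrier encoded by Slc25a1 moves from mitochondria to the cytosol. ATP-citrate lyase (Acly) splits it into acetyl-CoA and oxaloacetate, and the synthetase encoded by Acss2 makes acetyl-CoA from acetate instead. Acetyl-CoA carboxylase 1 (Acaca) makes the malonyl-CoA that fatty acid synthase (Fasn) joins into palmitate, using NADPH that malic enzyme 1 (Me1) can supply. Acetyl-CoA carboxylase 2 (Acacb) sits at the outer mitochondrial membrane, where its malonyl-CoA inhibits carnitine palmitoyltransferase 1 and with it fatty acid entry into mitochondria. Long-chain acyl-CoA synthetases (Acsl4, Acsl5) activate fatty acids, Acsl4 with a preference for arachidonate and similar fatty acids. T cells increase fatty acid synthesis when they are activated and divide.

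In all, 4 of the 9 measured genes fell, 1 rose and 4 did not pass the threshold, an adjusted p under 0.05 in a limma fit over all 19505 genes with Benjamini-Hochberg adjustment. Over all genes, 3.66% were called lower with hBD-2 and 0.800% higher, or 713 and 156 genes. With quantile normalization repeated on the deposited values these were 506 and 234, after cyclic loess 568 and 224, and after removing the trend with level on each array 573 and 227. The log2 fold change (hBD-2 minus PBS) was below 0 for 8 of the 9 genes, with a median of -0.36. Over all genes 46.1% were below 0, with a median of 0.02. The groups of 4 arrays did not overlap for 7 of the 9 genes, against 14.9% of all genes.

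**Figure D1:**
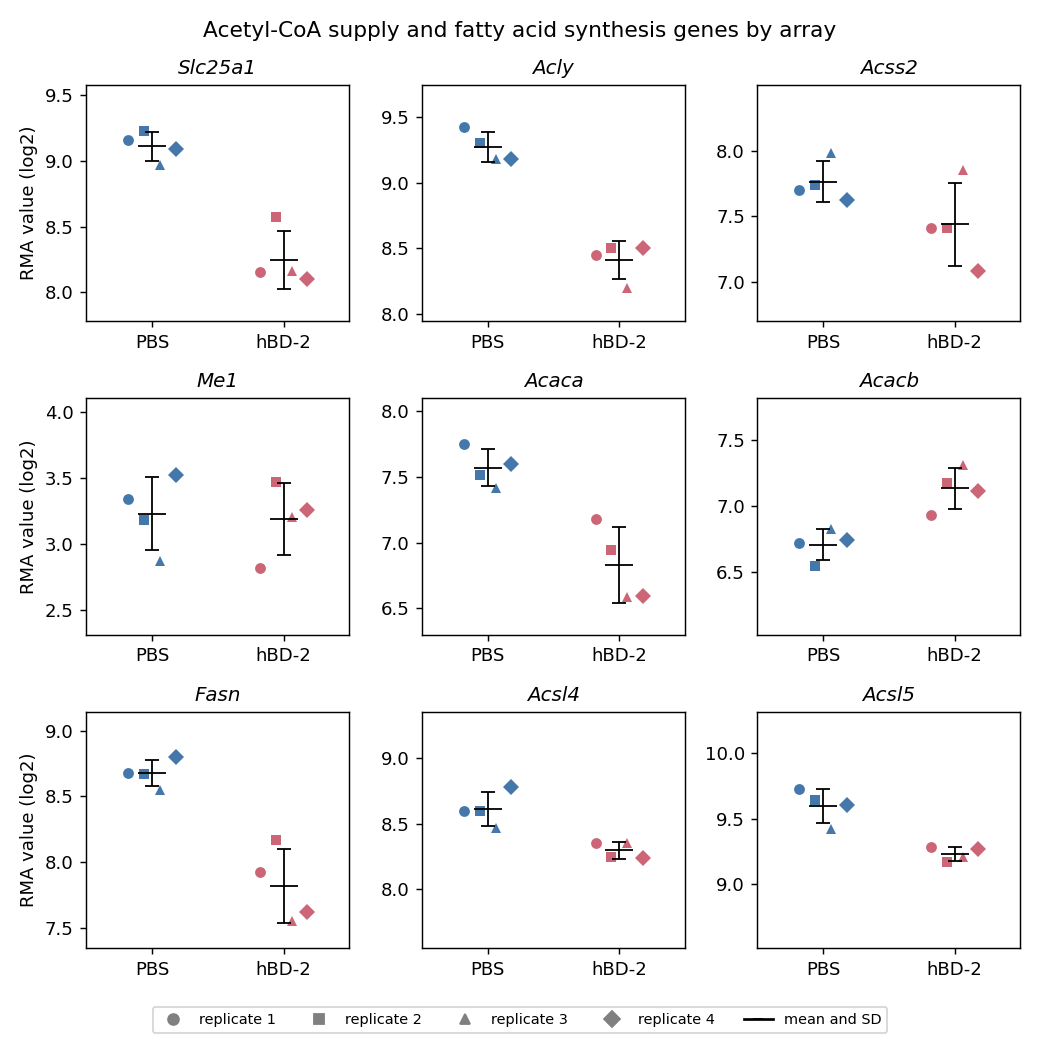
Deposited RMA values (log2, y axis) of the 9 measured genes on the 4 PBS and the 4 hBD-2 arrays, 1 panel per gene, each axis spanning the same number of log2 units, with marker shapes for replicate numbers and bars for mean and SD. Every hBD-2 array lies below every PBS array for Slc25a1, Acly, Acaca, Fasn, Acsl4 and Acsl5, every one lies above for Acacb, and the groups overlap for Acss2 and Me1.

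The spread of all values on an array differed in mean too. With PBS the interquartile range was 3.68 ± 0.0549 and with hBD-2 it was 3.53 ± 0.0936 (two-sided exact permutation test, p = 0.0571, n = 4 each), and it was 3.45 on both hBD-2 replicates 3 and 4. In 10 bins of all genes by level, the median log2 fold change went from 0.09 in the fourth bin to -0.08 in the highest. Among genes within 0.5 log2 units of the level of a member, the median lay between -0.09 and -0.07, except 0.07 around the dim Me1. Of these genes of like level, 6.44% to 11.1% were called in either direction, except 0.485% around Me1. The 9 measured T cell markers averaged 10.4 to 10.5 on PBS arrays and 10.5 on hBD-2 arrays, and 0 passed in limma (1 at an unadjusted p under 0.05). Of 22 measured markers of B cells, macrophages and monocytes, neutrophils, dendritic cells, natural killer cells and erythroid cells, 0 passed in limma, and 3 were at an unadjusted p under 0.05. The B cell list averaged 4.57 to 5.64 with PBS and 4.56 to 6.48 with hBD-2. Of 4 mast cell and basophil markers 2 rose, Cpa3 (4.41 ± 0.0621 to 5.39 ± 0.461) and Fcer1a (3.72 ± 0.217 to 4.29 ± 0.175), while Mcpt8 (4.64 ± 0.0386 and 5.16 ± 0.602) and Kit, the 1 that was lower (6.64 ± 0.192 and 5.97 ± 0.453), did not pass (limma adjusted p = 0.219 and 0.0744). At an unadjusted p under 0.05, 3 of the 4 were higher and 1 lower, the list averaging 4.77 to 4.96 with PBS and 4.95 to 5.54 with hBD-2. The part of these other cells in the results was not tested, and in bulk RNA fewer cells of a type and less RNA per cell cannot be told apart.

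Promoter sequence is shown for Acly, Slc25a1 and Acacb because they share a match to a loose form of the sterol regulatory element, the site of the lipogenic SREBP factors, and for Fasn because of its cluster of CCAAT boxes, the site of NF-Y. Each stretch is 100 bases taken from the 250 before the RefSeq start, on the gene's strand and 5′ to 3′, from GRCm38.p6, with matches in capitals (TCANNCCAC on its own strand, and CCAAT or its reverse complement for Fasn).
Acly, chr11:100528105-100528204, minus strand: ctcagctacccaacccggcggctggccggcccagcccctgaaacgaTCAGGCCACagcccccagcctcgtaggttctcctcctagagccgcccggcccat
Slc25a1, chr16:17928220-17928319, minus strand: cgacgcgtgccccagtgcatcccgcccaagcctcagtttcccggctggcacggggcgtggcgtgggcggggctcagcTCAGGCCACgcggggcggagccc
Acacb, chr5:114165268-114165367, plus strand: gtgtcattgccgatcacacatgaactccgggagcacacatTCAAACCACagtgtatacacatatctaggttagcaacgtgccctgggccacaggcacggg
Fasn, chr11:120824570-120824669, minus strand: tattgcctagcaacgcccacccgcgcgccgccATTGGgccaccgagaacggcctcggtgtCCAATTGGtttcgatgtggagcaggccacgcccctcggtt

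All 9 measured genes were found among the 32851 RefSeq promoters, Me1 with 2 starts, and both strands of the 250 bases before each start were searched for 6 patterns chosen with the genes' values known. TCANNCCAC was present for 3 of the 9 genes, against 3.52% of all promoters, at -158 to -150 from the start for Acly, -23 to -15 for Slc25a1 and -210 to -202 for Acacb. The 3 genes with this match include 2 that fell and the 1 that rose. The stricter cores CACCCCAC and CANCCCAC, which overlap each other and can overlap the loose form, were present in 0 of the 9 genes (2.58% and 6.14% of all promoters). The E-box CACGTG was present for 1 gene, Slc25a1 (6.02% of all), CCAAT for 6 genes (33.8%) and the GC box GGGCGG for 5 genes (32.7%). Me1 counted for CCAAT through 1 of its 2 starts and for GGGCGG through the other, whereas the percentages are per promoter. Fasn held 3 CCAAT matches, of which 2 on opposite strands overlap. No pattern was present for Acaca. A match is a stretch of letters and does not show that a factor binds there.

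Transcripts of the citrate steps of acetyl-CoA supply fell. Slc25a1 (mitochondrial citrate carrier) was at 9.16, 9.22, 8.97 and 9.09 on PBS replicates 1 to 4 and at 8.15, 8.58, 8.16 and 8.10 on hBD-2 replicates 1 to 4. Every hBD-2 array lay at least 0.39 log2 units below every PBS array, and hBD-2 replicate 2 was the highest of its group. This gave a log2 fold change of -0.86 (SE 0.119, 95% interval -1.12 to -0.60, limma adjusted p = 0.00261), the 115th lowest of all genes. Acly (cytosolic ATP-citrate lyase) was at 9.43, 9.30, 9.18 and 9.18 with PBS and at 8.45, 8.50, 8.20 and 8.50 with hBD-2. The gap between the groups was 0.68 log2 units, wider than the range within either group. Its log2 fold change was -0.86 (SE 0.104, 95% interval -1.08 to -0.63, limma adjusted p = 0.00122). Both calls were kept when any single array was left out (highest limma adjusted p = 0.0134 for Slc25a1 and 0.00655 for Acly).

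Acss2, which makes acetyl-CoA from acetate, did not pass. It was at 7.70, 7.74, 7.98 and 7.62 with PBS and at 7.41, 7.41, 7.85 and 7.08 with hBD-2. In each group replicate 3 was highest, and replicate 4 lowest, and the groups overlapped through hBD-2 replicate 3. Its log2 fold change was -0.32 (SE 0.149, 95% interval -0.65 to 0.0027, limma adjusted p = 0.228). Me1 (cytosolic malic enzyme) lay below the lower quartile of every array (3.62 to 3.78), where RMA values are close to the floor. It was at 3.34, 3.18, 2.87 and 3.52 with PBS and at 2.82, 3.47, 3.20 and 3.26 with hBD-2. The groups overlapped throughout, the log2 fold change was -0.04 (95% interval -0.39 to 0.31, limma adjusted p = 0.910), and a change of so dim a gene may not show.

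The carboxylase genes went in opposite directions. Acaca was at 7.75, 7.51, 7.42 and 7.60 with PBS and at 7.18, 6.94, 6.59 and 6.60 with hBD-2. All hBD-2 arrays lay below all PBS arrays, replicates 3 and 4 lowest. The log2 fold change was -0.74 (SE 0.140, 95% interval -1.05 to -0.44, limma adjusted p = 0.0137), and the call was lost by a narrow margin without PBS replicate 1 (-0.68, limma adjusted p = 0.0501). Acacb was at 6.72, 6.54, 6.82 and 6.74 with PBS and at 6.93, 7.17, 7.31 and 7.11 with hBD-2. All hBD-2 arrays lay above all PBS arrays, by at least 0.11 log2 units. Its log2 fold change was 0.43 (SE 0.106, 95% interval 0.20 to 0.66, limma adjusted p = 0.0450). This call was close to the threshold: without any 1 array other than hBD-2 replicate 1 it was lost (limma adjusted p = 0.0554 to 0.127), and with the replicate number as a block it was 0.0538. The log2 fold change stayed between 0.37 and 0.49 over the 8 omissions.

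Fasn, whose product elongates malonyl-CoA into palmitate, was at 8.68, 8.67, 8.55 and 8.80 with PBS and at 7.92, 8.17, 7.56 and 7.62 with hBD-2. The groups were at least 0.39 log2 units apart, and the hBD-2 arrays spread more widely (SD 0.283 against 0.100), with replicates 3 and 4 lowest. The log2 fold change was -0.86 (SE 0.134, 95% interval -1.15 to -0.57, limma adjusted p = 0.00523). The call was kept without any single array (highest limma adjusted p = 0.0244).

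The hBD-2 arrays with the lowest Acaca and Fasn values, replicates 3 and 4, were those with the narrowest spread of all values, and the part of that spread in the result was not tested. After that trend with level was removed, the log2 fold changes were -0.67 for Acaca, 0.49 for Acacb, -0.77 for Acly, -0.77 for Fasn and -0.78 for Slc25a1, all still called. Without both hBD-2 replicates 3 and 4, which leaves 2 arrays against 4, only Acly of the 9 genes was called (-0.79, limma adjusted p = 0.0205). The others were then at -0.75 for Slc25a1 and -0.63 for Fasn (limma adjusted p = 0.0622 for each), -0.51 for Acaca (0.150) and 0.35 for Acacb (0.274).

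**Figure D2:**
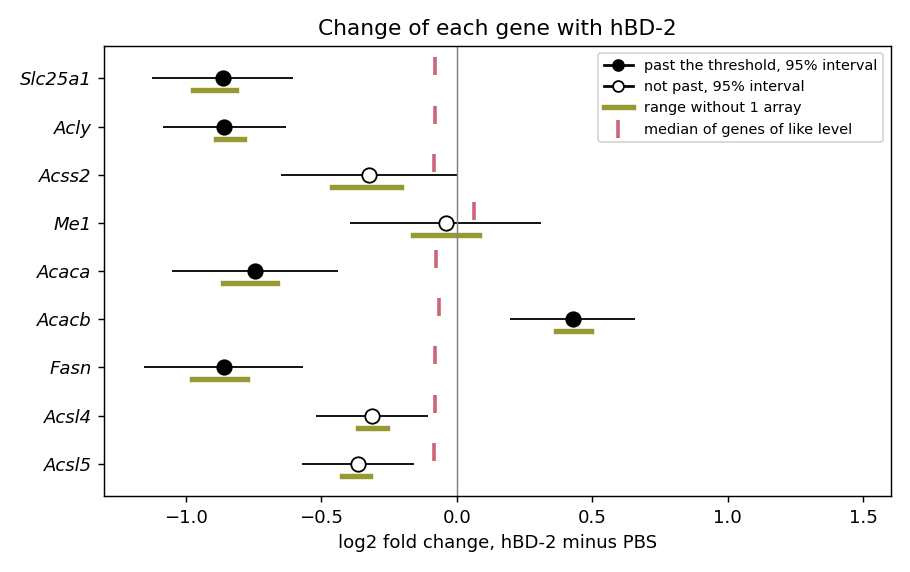
Log2 fold change (x axis, hBD-2 minus PBS) of each gene with its 95% interval from the limma fit, filled where past the threshold, with the range over the 8 omissions of 1 array and the median of genes within 0.5 log2 units of its level. Slc25a1, Acly and Fasn lie at -0.86 and Acaca at -0.74, with Acacb alone above 0 at 0.43.

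The acyl-CoA synthetase genes did not pass, although their groups did not overlap. Acsl4 was at 8.60, 8.60, 8.47 and 8.78 with PBS and at 8.35, 8.25, 8.35 and 8.24 with hBD-2. The nearest arrays of the groups were 0.11 log2 units apart. This was a log2 fold change of -0.31 (SE 0.0948, 95% interval -0.52 to -0.11, limma adjusted p = 0.0848). Acsl5, found at the endoplasmic reticulum and mitochondria, was at 9.73, 9.64, 9.42 and 9.60 with PBS and at 9.29, 9.17, 9.21 and 9.27 with hBD-2. The nearest arrays were 0.13 log2 units apart. The log2 fold change was -0.36 (SE 0.0939, 95% interval -0.57 to -0.16, limma adjusted p = 0.0508). Both were called with a variance trend (limma adjusted p = 0.0136 for Acsl4 and 0.00124 for Acsl5) and when the test was limited to genes from the percentile 40 of mean level upward (0.0370 and 0.0206), and Acsl5 also without PBS replicate 3 (0.0402). With quantile normalization their log2 fold changes were -0.23 and -0.28 (limma adjusted p = 0.180 and 0.111).

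Whether members changed unequally was asked from the difference of their log2 values on the same array, for 6 pairs. Acaca minus Acacb was 1.04, 0.97, 0.59 and 0.86 with PBS and 0.25, -0.23, -0.72 and -0.52 with hBD-2. The groups did not overlap, and hBD-2 minus PBS was -1.17 on the log2 scale (two-sided exact permutation test, p = 0.0286, adjusted p = 0.171 over the 6 pairs). A p of 0.0286 is the smallest that 4 arrays against 4 can give, so a single pair cannot pass after adjustment over 6. Acly minus Acss2 was 1.73, 1.56, 1.20 and 1.56 with PBS and 1.05, 1.09, 0.35 and 1.42 with hBD-2. The groups overlapped, and hBD-2 minus PBS was -0.53 (two-sided exact permutation test, p = 0.0571, adjusted p = 0.171).

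For the other pairs the groups differed by less than their spread. Acly minus Slc25a1 differed by 0.01, from 0.16 ± 0.0931 to 0.17 ± 0.221, and Acly minus Fasn by 0.002, from 0.60 ± 0.152 to 0.60 ± 0.226 (exact permutation test, p = 1 for each, n = 4). Acaca minus Fasn differed by 0.12, from -1.11 ± 0.121 to -0.99 ± 0.201 (exact permutation test, p = 0.371, n = 4). Acsl4 minus Acsl5 differed by 0.05, from -0.99 ± 0.131 to -0.94 ± 0.0698 (exact permutation test, p = 0.514, n = 4). A p above the threshold does not show that members changed alike.

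**Figure D3:**
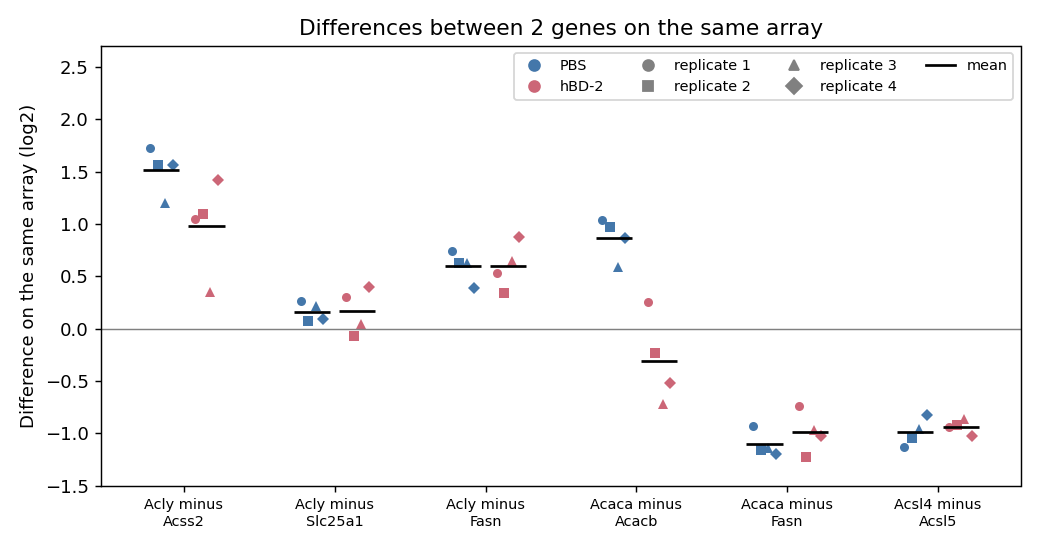
Difference between the log2 values of 2 genes on the same array (y axis) for the 6 pairs, with a point for each of the 4 PBS and 4 hBD-2 arrays, marker shapes for replicate numbers and lines for means. Acaca minus Acacb runs from 0.59 to 1.04 with PBS and from -0.72 to 0.25 with hBD-2, while the means of Acly minus Slc25a1 and Acly minus Fasn are level between groups.

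Of 115 other measured genes in 8 lists around this pathway, 21 fell and 1 rose. Over all genes 3.66% were called lower and 0.800% higher. Among genes at the level of the members other than Me1, 6.44% to 11.1% were called in either direction. Beside citrate export, 4 of 15 other acetyl-CoA, citrate and acetate genes fell and none rose, with a median log2 fold change of -0.32 (all genes 0.02). Hmgcs1, which draws acetyl-CoA units into mevalonate, fell 2.89-fold (10.1 ± 0.130 to 8.55 ± 0.134, limma adjusted p = 4.51e-05). Slc16a1, a carrier of lactate, pyruvate and acetate, fell 1.54-fold (8.71 ± 0.167 to 8.09 ± 0.162, limma adjusted p = 0.0124). That call was lost without hBD-2 replicates 3 and 4 together. Cs, the mitochondrial citrate synthase, was at 9.47, 9.45, 9.27 and 9.44 with PBS and at 8.997, 8.94, 8.62 and 8.96 with hBD-2. It fell 1.44-fold (limma adjusted p = 0.0193), significance being lost in 3 of the 8 omissions of 1 array (limma adjusted p up to 0.0650). Aacs, a cytosolic acetoacetyl-CoA synthetase named after its values were seen, fell 1.42-fold (limma adjusted p = 0.0295), significance being lost after quantile normalization and in 4 of the 8 omissions of 1 array (limma adjusted p up to 0.0925).

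Of 13 genes in the list named for NADPH supply, 4 fell and none rose, with a median of -0.29. Idh1 and Pgd encode enzymes that produce NADPH, whereas Mdh1 works with NAD and Me2 mainly with NAD. Idh1, the cytosolic isocitrate dehydrogenase, was at 6.27, 6.33, 6.13 and 6.11 with PBS and at 4.76, 5.25, 5.18 and 4.79 with hBD-2. Its groups were further apart than those of any member, and it fell 2.32-fold (limma adjusted p = 0.000643). Me2, the mitochondrial relative of Me1, fell 1.90-fold (8.32 ± 0.106 to 7.40 ± 0.313, limma adjusted p = 0.00494). Pgd, a dehydrogenase of the pentose phosphate pathway, fell 1.69-fold (8.42 ± 0.147 to 7.66 ± 0.111, limma adjusted p = 0.00252). These calls were kept without any single array. Mdh1, the cytosolic malate dehydrogenase named after its values were seen, fell 1.34-fold (limma adjusted p = 0.0182), significance being lost in 4 of the 8 omissions of 1 array (limma adjusted p up to 0.0634).

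The lists of regulators were mostly not past the threshold. Of 13 regulators of acetyl-CoA carboxylase, 0 passed in limma, 4 being lower and 0 higher at an unadjusted p under 0.05, with a median of -0.12. Prkaa2 and Prkab2, subunits of the AMP-activated kinase that inhibits both carboxylases, were at -0.31 and -0.28 on the log2 scale of change (limma adjusted p = 0.0999 and 0.176), and Camkk2, a kinase upstream of it, at -0.33 (limma adjusted p = 0.161). Prkaa2 was at 3.23 ± 0.0691 and 2.92 ± 0.149, below the lower quartile of every array. Of 15 measured transcription regulators of lipogenesis, 2 fell and none rose, with a median of -0.12, and Srebf1 was not matched and was not analysed here. At an unadjusted p under 0.05, 3 were lower and 2 higher. The 2 higher, named after their values were seen, were Nr1h3 and Sp1, at 0.56 and 0.26 on the log2 scale (limma adjusted p = 0.102 and 0.103). Insig1, which holds SREBP precursors in the endoplasmic reticulum and is itself an SREBP target, fell 2.49-fold (8.48 ± 0.213 to 7.17 ± 0.214, limma adjusted p = 0.000567). Srebf2, which encodes SREBP-2, was at 10.40, 10.42, 10.36 and 10.33 with PBS and at 9.89, 9.88, 9.76 and 9.76 with hBD-2. It fell 1.47-fold (limma adjusted p = 0.00487), and both calls were kept without any single array. Without hBD-2 replicates 3 and 4 together, the Insig1 call was kept and that of Srebf2 lost. Mlx, the partner of the carbohydrate-response factor, was at -0.35 on the log2 scale, with limma adjusted p = 0.0711, and was called with a variance trend and with the percentile 40 filter.

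Of 15 other acyl-CoA synthetases and fatty acid transporters, 2 fell and 1 rose, with a median of -0.05. Both that fell encode lipid-binding proteins: Fabp5, a fatty acid binding protein, fell 2.21-fold (6.77 ± 0.129 to 5.63 ± 0.254, limma adjusted p = 0.000883), and Dbi, the acyl-CoA binding protein, fell 1.93-fold (8.63 ± 0.132 to 7.69 ± 0.345, limma adjusted p = 0.00687). The transporter gene Slc27a6 rose 1.41-fold from near the floor (3.15 ± 0.227 to 3.65 ± 0.0666, limma adjusted p = 0.0377), but not after quantile normalization, cyclic loess or removal of the level trend, nor in 7 of the 8 omissions of 1 array (limma adjusted p up to 0.0836). Of 20 glycerolipid synthesis genes, 2 fell and none rose, with a median of -0.13. That count is near the share called among genes at the level of most members (6.44% to 11.1%). Lpcat3, which remodels phospholipids with polyunsaturated chains, fell 1.38-fold (limma adjusted p = 0.0169) and Agpat4, an acyltransferase, 1.46-fold (limma adjusted p = 0.0270). Significance was lost in 5 of the 8 omissions of 1 array for Lpcat3 and in 6 for Agpat4 (limma adjusted p up to 0.0624 and 0.0808). Agpat5 was at -0.31 on the log2 scale, with limma adjusted p = 0.111, and was called with a variance trend.

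In the list of desaturases and elongases, 7 of 15 genes fell and none rose, with a median of -0.35. Fads2 fell 4.64-fold, Scd1 3.40-fold and Elovl6 1.67-fold (limma adjusted p = 3.06e-05, 0.00687 and 0.00917), and these calls were kept without any single array. Without hBD-2 replicates 3 and 4 together, Fads2 kept its call and Scd1 and Elovl6 lost theirs. Scd1 went from 8.76 ± 0.230 to 6.99 ± 0.733. Fads2 desaturates polyunsaturated fatty acids, Scd1 saturated ones, and Elovl6, which elongates palmitate, went from 8.38 ± 0.168 to 7.64 ± 0.221. The other falls, named after their values were seen, were those of Fads1 (1.80-fold), another desaturase of polyunsaturated fatty acids, Elovl1 (1.35-fold), an elongase, and Hsd17b12 (1.41-fold) and Tecr (1.34-fold), reductases of the elongation cycle. Significance was lost in 4 of the 8 omissions of 1 array for Fads1, 5 for Tecr and 7 each for Elovl1 and Hsd17b12. Elovl1 and Hsd17b12 also lost it after quantile normalization, cyclic loess and removal of the level trend, and Hsd17b12 with robust estimation. Of 9 genes of mitochondrial fatty acid synthesis and lipoylation, a separate pathway that does not use Fasn, 0 passed in limma, 1 being lower and 0 higher at an unadjusted p under 0.05, with a median of -0.14. That gene was Mecr, the enoyl reductase, at 6.31 ± 0.157 and 5.69 ± 0.393 (log2 fold change -0.63, limma adjusted p = 0.0624). It was called with the replicate number as a block (0.0209), a variance trend (0.0123), the percentile 40 filter (0.0343) and without hBD-2 replicate 1 (0.00900). Lipt1 was at -0.22 and Mcat at -0.14 on the log2 scale (limma adjusted p = 0.374 and 0.393).

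**Figure D4:**
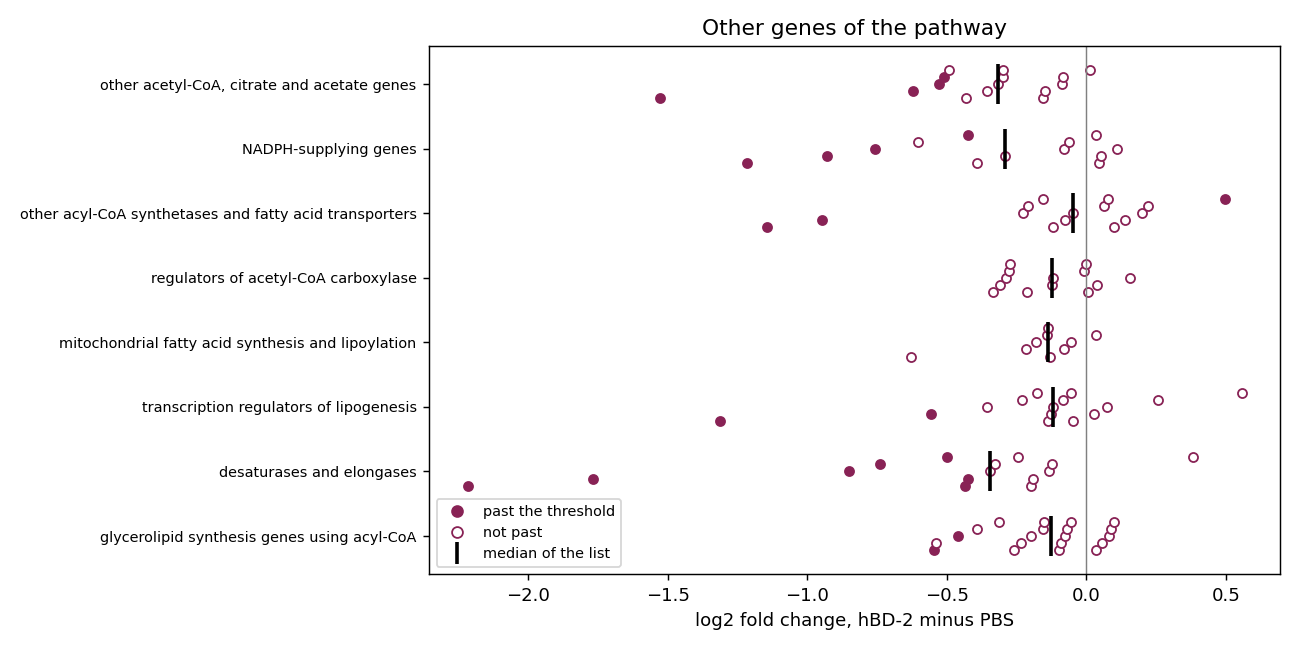
Log2 fold change (x axis, hBD-2 minus PBS) of each measured gene in the 8 other lists of the pathway, 1 point per gene, filled where past the threshold, with a bar at the median of the list. Filled points are lower with hBD-2 except Slc27a6, and the lists of carboxylase regulators and of mitochondrial fatty acid synthesis hold none.

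The genes whose profiles over the 8 arrays were most like those of the called members were found by the root mean square difference of log2 values centred on each gene's mean, among 17371 genes. For Acly these were Piga (0.0802 log2 units), Nelfe (0.0858) and Pfkp (0.0866), and for Acaca Pfkfb3 (0.0704), Arsb (0.0781) and Clcn3 (0.0799). Pfkp and Pfkfb3 encode a phosphofructokinase and a bifunctional enzyme that sets the level of its activator. For Slc25a1 they were Stx11 (0.0851), Coro2a (0.0967) and Gbe1 (0.102), and for Fasn Pdk3 (0.0789), a kinase that inhibits pyruvate dehydrogenase, Tbc1d7 (0.0958) and Afg3l2 (0.0962). For Acacb they were Sp3 (0.0461), a transcription factor of GC boxes, Clk1 (0.0656) and Ssty2 (0.0666), a member of a multicopy family whose copies can share probes. Except Ssty2 (limma adjusted p = 0.0912), these genes were also called. Significance was lost in 7 of the 8 omissions of 1 array for Sp3, 6 for Clk1 and 4 for Clcn3. Profiles like those of called genes differ between the groups, so the likeness is a description.

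**Figure D5:**
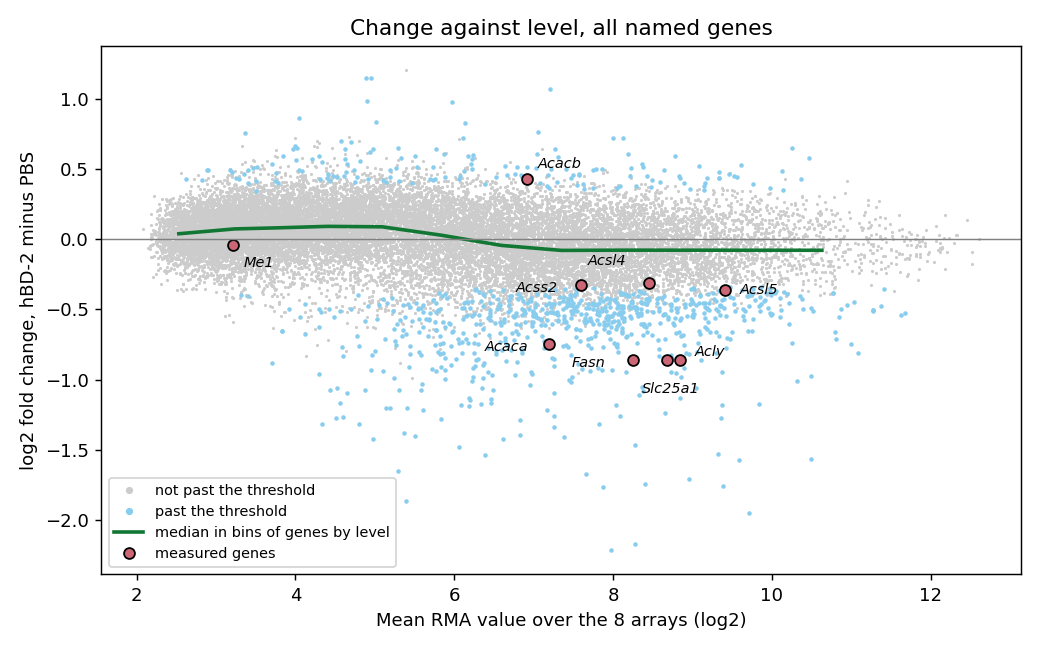
Log2 fold change (y axis, hBD-2 minus PBS) against mean RMA value over the 8 arrays (x axis, log2) for the 19505 named genes, with the 9 measured genes labelled and a line through the medians of 10 bins of genes by level. The line runs from 0.09 in the fourth bin to -0.08 in the highest, and Slc25a1, Acly, Fasn and Acaca lie well below it, with Acacb above it.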

How the data were processed

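The authors deposited log2 expression values of 22203 probe sets on 8 arrays, and per the submitters' processing notes oligo and RMA (background correction, normalization between arrays and summary per probe set) were used. No version, setting or annotation build is given in the sources used here. RMA draws low signals towards a floor, so changes of dim genes are understated. The platform table gave 1 symbol for 19572 probe sets and left 2631 unnamed, and all 19572 were matched by gene identifier to the GRCm38.p6 gene table. Where a gene had several probe sets (55 genes), that of highest mean was kept.

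hBD-2 was compared with PBS in limma 3.58.1 (R 4.3.3; lmFit and eBayes, no block, trend or robust option; two-sided, Benjamini-Hochberg over 19505 genes, threshold 0.05), checked on simulated data. The 6 pairs of measured members and the array spreads were compared with exact permutation tests (scipy 1.17.1). The text names all members, the 3 genes with the smallest p of each list and the 3 nearest profiles of each called member. The members and lists were chosen with earlier results of these data known. Alternatives were a replicate block, quantile normalization, cyclic loess, a variance trend, robust estimation, a filter at the percentile 40 of mean level, averaged probe sets, omission of each array and, chosen after seeing the data, removal of each array's level trend and omission of hBD-2 replicates 3 and 4. Promoters are from RefSeq, GRCm38.p6. No column was left unmapped (0). The number of arrays limits the precision.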

Additional observations from a re-analysis of the deposited data

Results flagged for a closer look

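Of 122 groups of 4 values examined, 8 held 1 array far from the other 3 by Dixon's criterion at 95%, which chance meets in about 1 in 20 groups. Among members these were Acly on hBD-2 replicate 3 (8.20, the others 8.45 to 8.50) and Slc25a1 on hBD-2 replicate 2 (8.58, the others 8.10 to 8.16). Cs was low on replicate 3 of both groups, at 9.27 with PBS (the others 9.44 to 9.47) and 8.62 with hBD-2 (the others 8.94 to 8.997). The remaining values were Fads2 on PBS replicate 3 (8.84), Slc27a6 on PBS replicate 1 (2.81), Agpat4 on PBS replicate 1 (7.50) and Agpat5 on hBD-2 replicate 1 (7.60).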

How the results depend on the processing

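The counts of members, 4 lower and 1 higher, were the same with quantile normalization, cyclic loess, robust estimation, averaged probe sets and the level trend removed. With the replicate number as a block 4 were lower and 0 higher, Acacb losing its call. The labels do not pair same-numbered arrays. Their deviations from the group means correlated over all genes at 0.181, 0.0585, 0.159 and 0.00482. By this measure hBD-2 replicates 1, 2 and 3 each correlated most with the same-numbered PBS array, and hBD-2 replicate 4 with PBS replicate 3 (0.0906). PBS replicate 2 correlated most with hBD-2 replicate 4 (0.0781). The B cell marker Cd79a was at 4.50, 6.60, 4.85 and 6.84 on PBS replicates 1 to 4 and at 5.23, 7.86, 4.80 and 7.76 on hBD-2 replicates 1 to 4. In both groups it was higher on replicates 2 and 4 than on 1 and 3, as were Ms4a1, Pax5 and Cd22. Cd79b had that order with hBD-2 only. Whether same-numbered arrays share a mouse was not tested, and the main fit used no replicate block. With a variance trend 1558 genes were lower and 474 higher over all genes, and 32 and 3 in the other lists. Testing only genes at or above the percentile 40, which leaves fewer genes and Me1 without a value, gave 1192 lower and 349 higher. Under both of these settings 6 members were lower. Without hBD-2 replicates 3 and 4 together, which leaves fewer arrays, 1 member was lower and 0 higher, 112 genes were lower and 16 higher over all genes, and 8 and 0 in the other lists. These 8 were Hmgcs1, Idh1, Pgd, Me2, Fabp5, Dbi, Insig1 and Fads2. Over omissions of 1 array, 3 to 5 members were lower and 0 to 1 higher, 279 to 1074 genes lower and 33 to 322 higher over all genes, and 12 to 24 and 0 to 2 in the other lists. Over all genes the lower count moved by over 1.5 times without PBS replicate 1 (279), 2 (299) or 4 (325), hBD-2 replicate 3 (339) or 4 (313), and hBD-2 replicate 1 (1074), and the higher count without these and without hBD-2 replicate 2 (89). The cause was not tested. The difference in interquartile range lay between -0.19 and -0.13. Signs turned for Me1, at 0.06 without PBS replicate 4 and 0.083 without hBD-2 replicate 1 (range -0.16 to 0.08). The change of Acly minus Fasn turned too, to -0.000512 with the level trend removed and as low as -0.0917 without hBD-2 replicate 4. That of Acly minus Slc25a1 turned in some omissions of 1 array, to as low as -0.0723 without hBD-2 replicate 4. None of these was past the threshold with all 8 arrays. Without an array the pair tests cannot pass, so they were not run.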
